A study of Mus musculus with 2 samples.

Results

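Glutathione transferases and UDP-glucuronosyltransferases are the main conjugating enzymes of hepatocytes. Their expression was compared between 2 mouse liver tumours. The genes were taken by their names, in a choice made with earlier results of these data known. All probe sets that the platform annotation assigns to exactly 1 gene, with a symbol of the Gst alpha, kappa, mu, omega, pi, theta or zeta classes, of the Mgst type or of the Ugt type, were taken, with the brightest probe set for each gene. This gave 33 of the 19938 genes on the array, 22 glutathione transferases and 11 glucuronosyltransferases. One tumour was from a wild-type mouse. The other was from a mouse labelled HLF-deficient; HLF is hepatic leukemia factor, a transcription factor of the PAR bZIP family. Both mice had received DEN (diethylnitrosamine, a liver carcinogen that cytochrome P450 enzymes activate), so no tissue without DEN and no non-tumour liver entered the comparison. The kind of Hlf allele, the strain, sex and age of the mice and any pooling are not given in the labels. With 1 array per genotype there are no replicates. No difference could be tested, and each value below describes a pair of tumour samples.

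Glutathione transferases join the tripeptide glutathione to electrophiles, and most of them are soluble. The microsomal members belong to a separate family of membrane proteins. Glucuronosyltransferases sit in the membrane of the endoplasmic reticulum and transfer a sugar from a nucleotide donor, mostly glucuronic acid, to bilirubin, steroids, bile acids and drugs. Both kinds of conjugate leave the hepatocyte through ABC transporters. The transcription factor NRF2 acts on many glutathione transferase genes through the antioxidant response element, and the hepatocyte factor HNF1 is known to act on Ugt2b promoters. PAR bZIP factors, of which HLF is one, bind a motif that C/EBP factors also recognise.

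Levels are RMA values of the array in log2 units, and each difference is the level in the HLF-deficient tumour minus that in the wild-type one. A level depends on the probes as well as on the transcript, so levels of different genes were not ranked. A gene counted as expressed when at least 1 array reached the floor of 2.96, the 95th percentile of probe sets for olfactory, vomeronasal and taste receptor genes. Hlf itself had levels of 5.13 in the wild-type tumour and 3.79 in the HLF-deficient one, a difference of -1.34. The latter is still above the floor, and where its probes lie relative to the allele is not known here. Hepatocyte markers were strong in both tumours. Of 10 listed, the 9 with a row were all above the floor, their median difference was 0.12, and their summed linear level in the HLF-deficient tumour was 1.01 times that in the wild-type tumour. Of the macrophage and endothelial markers, 8 of 8 each were above the floor, and their summed levels were 1.45 and 1.28 times those of the wild-type tumour. Both lists were divided: Clec4f and Vsig4 were at -0.37 and -0.36 and Cd14 and Cd68 at 1.86 and 1.53 among the macrophage markers, and Clec4g was at -0.76 and Lyve1 at 1.21 among the endothelial ones. The part of these other cells in the differences below was not tested, and fewer cells of a type cannot be told apart from less RNA per cell.

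None of the transferases differed by 2-fold. Of the 30 genes above the floor, 0 were higher and 0 were lower by this measure, while 1.49% of the 14649 genes above the floor were higher and 0.362% were lower. At 1.5-fold, 0 of 30 were higher, against 6.35% of all genes, and 1 of 30 was lower, against 3.13%. That 1 gene was Mgst2, close to the floor. A count of 0 or 1 among 30 genes is near what these shares would give, so the count by itself sets the enzymes apart from nothing. The differences ran from -0.59 to 0.58, and 21 of 30 (70.0%) were smaller than 0.25 in size, as were 51.7% of all genes. These shares are not matched for level. The median level in the wild-type tumour was 8.51 for the members and 4.94 for all genes, and differences of all genes spread less at higher levels. As a guide to technical spread, the difference of 1 probe set had an SD of 0.24, estimated from 740 genes with more than 1 probe set above the floor. It holds no spread between mice or tumours.

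**Figure D1:**
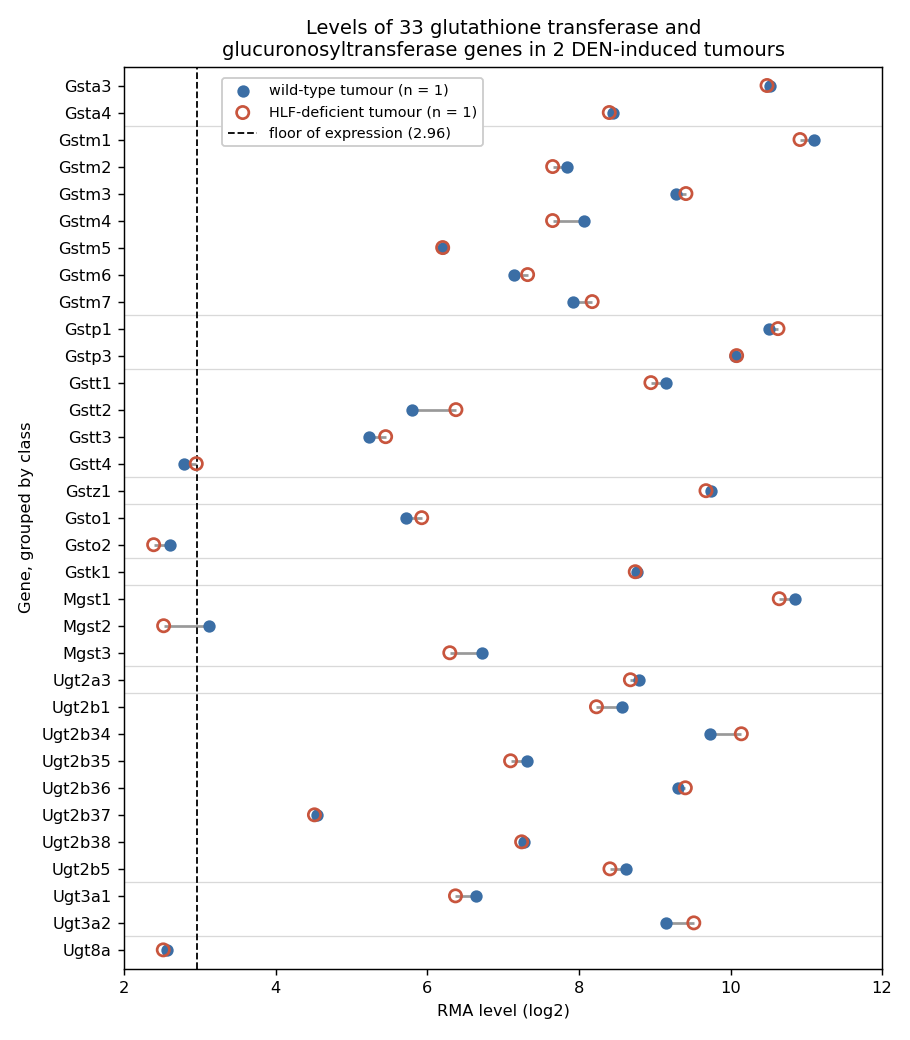
RMA levels on a log2 axis of the 33 genes, by class, in the wild-type tumour (filled circles) and the HLF-deficient tumour (open circles), 1 array each, with the floor of 2.96 as a dashed line. The circles of most genes overlap or nearly touch; the widest gaps are those of Gstt2 and Mgst2, and 3 genes lie below the floor on both arrays.

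The alpha class was close to level. Gsta3, an alpha class enzyme known in mice for the detoxification of aflatoxin, had levels of 10.52 in the wild-type tumour and 10.48 in the HLF-deficient one. Gsta4, which conjugates the lipid peroxidation product hydroxynonenal, had levels of 8.45 and 8.40. Both differences, -0.04 and -0.05, turned positive (0.08 and 0.07) with each array centred at its own median. Gsta1 and Gsta2 had no probe set of their own. The 4 probe sets that name them, together with a pair of predicted gene models, were lower by a small amount in the HLF-deficient tumour, with differences of -0.17, -0.18, -0.21 and -0.23.

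The 7 mu class genes were divided in direction. Gstm4 had levels of 8.06 in the wild-type tumour and 7.65 in the HLF-deficient one, which differ by -0.41. Gstm1, a soluble mu class enzyme abundant in mouse liver, had levels of 11.10 and 10.92, and Gstm2 had 7.84 and 7.65; both differed by -0.18. These 3 genes had lower levels in the HLF-deficient tumour under all 4 scalings of the arrays, namely as deposited, centred, quantile normalized and with a loess trend of the difference with level removed. With the arrays centred, Gstm1 and Gstm2 were both at -0.06, well within the technical SD of 0.24. All scalings use the same 2 arrays, so a sign that holds is no measure of spread. Gstm7 had levels of 7.92 and 8.17 and Gstm3 levels of 9.28 and 9.41, with differences of 0.25 and 0.14 that were positive under all 4 scalings. After loess, Gstm3 was at 0.02. The second probe set of Gstm3, at 8.82 and 8.81, was level. Gstm6 differed by 0.18, and by -0.02 after the loess trend was removed. Gstm5 differed by 0.00 as deposited, by 0.12 with the arrays centred and by -0.19 and -0.22 after quantile normalization and loess.

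The order of the Gstm genes along mouse chromosome 3 followed this division. They form 7 neighbouring protein-coding genes in assembly GRCm38.p6, in the order Gstm5, Gstm7, Gstm6, Gstm3, Gstm2, Gstm1 and Gstm4. In that order the differences were 0.00, 0.25, 0.18, 0.14, -0.18, -0.18 and -0.41. The value of Gstm3 is that of its brighter probe set, and its second probe set differed by -0.01 as deposited. As deposited and with the arrays centred, the genes with negative values were thus the 3 at one end. After quantile normalization and loess Gstm5, at the other end, was negative too, and so was Gstm6 after loess. This arrangement was noticed after the values were seen and was not tested. Mu class genes are similar in sequence, so transcripts of 1 gene may bind probes of another, and neighbours are therefore not independent measurements.

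**Figure D2:**
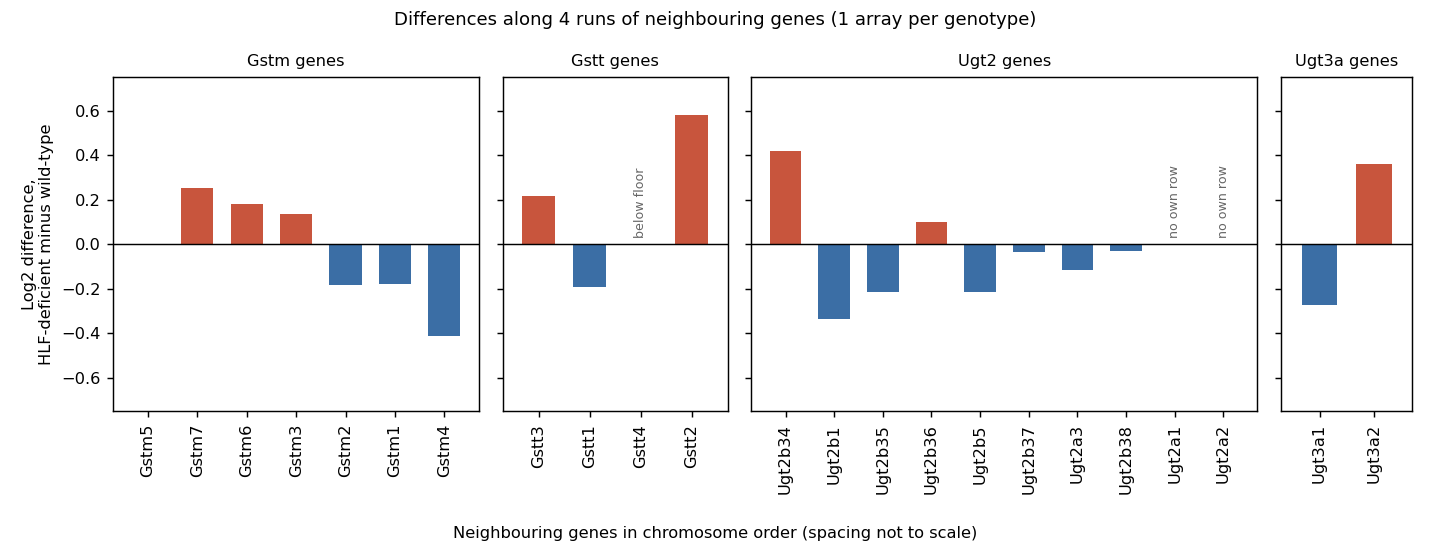
Difference in log2 level, HLF-deficient minus wild-type tumour, of the genes in 4 runs of neighbouring genes, in chromosome order with equal spacing, from 1 array per genotype; red bars are above 0 and blue bars below. In the Gstm run the last 3 genes are below 0 and Gstm5, at 0.00, has no visible bar; in the Ugt2 run the first gene, Ugt2b34, is at 0.42 and its neighbour Ugt2b1 at -0.34; genes below the floor or with no row of their own have no bar.

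Pi and theta class genes had mostly positive differences. Gstp1, which also binds the Jun kinase JNK, had levels of 10.51 in the wild-type tumour and 10.63 in the HLF-deficient one, which differ by 0.11; the value stayed positive (0.04 to 0.24) under the other scalings. Both probe sets shared by Gstp1 and Gstp2 differed by 0.17. Gstp3 was level at 10.06 and 10.08, and below 0 (-0.08 and -0.07) after quantile normalization and loess. Gstt2, a theta class enzyme, had the largest positive difference of all members. Its levels were 5.80 and 6.38, a difference of 0.58 or 1.49-fold. This ranged from 0.36 after loess to 0.70 with the arrays centred, and only the last exceeds 1.5-fold. Gstt3, in the same run of neighbouring genes, had levels of 5.23 and 5.45 and stayed positive under all 4 scalings, at 0.04 after loess. Gstt1, which acts on small halogenated compounds, had levels of 9.14 and 8.95, a difference of -0.19 that stayed negative. With the arrays centred, Gstt1 was at -0.07. Gstt4 was under the floor in both tumours, with levels of 2.78 and 2.95.

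The classes with 1 or 2 genes differed little. Gstz1, the maleylacetoacetate isomerase of tyrosine breakdown, had levels of 9.75 and 9.68. Gstk1, found in mitochondria and peroxisomes, had levels of 8.77 and 8.74. Both differences, -0.07 and -0.03, turned positive with the arrays centred. Gsto1, which reduces dehydroascorbate, had levels of 5.71 and 5.92. Its difference of 0.21 shrank to 0.03 after quantile normalization and to 0.00 after loess. Gsto2 was under the floor in both tumours, with levels of 2.60 and 2.39.

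All 3 microsomal glutathione transferases had lower levels in the HLF-deficient tumour, under all 4 scalings. Mgst3, which also reduces lipid hydroperoxides, had levels of 6.72 in the wild-type tumour and 6.30 in the HLF-deficient one, which differ by -0.42 or 1.34-fold. It passed 1.5-fold after quantile normalization (-0.61) and loess (-0.64). Mgst1, of the endoplasmic reticulum and the outer mitochondrial membrane, had levels of 10.86 and 10.64, a difference of -0.21, or -0.09 with the arrays centred. Mgst2, which can form leukotriene C, had levels of 3.11 and 2.52. The HLF-deficient value was below the floor, so its measured difference of -0.59 bounds the change only at 1.11-fold or more. The class median of -0.42, over 3 genes, was -0.21 when values below the floor were set to it.

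Among the glucuronosyltransferases, 7 of 10 expressed genes had negative values and 3 positive ones as deposited, with a median of -0.08. Of all genes, 58.0% were positive, a share not matched for level. With the arrays centred, Ugt2a3, Ugt2b37 and Ugt2b38 turned positive, so most of the family and its median were then above 0. After loess Ugt2b36 turned negative. The direction of the family therefore depends on the scaling. Ugt2b34 was the highest, at 9.73 in the wild-type tumour and 10.14 in the HLF-deficient one, which differ by 0.42. Ugt2b1, its neighbour on chromosome 5, was the lowest, at 8.57 and 8.23, a difference of -0.34. Ugt2b enzymes conjugate steroids, bile acids and drugs. The signs of this pair of neighbours held under all 4 scalings, at 0.32 to 0.54 for Ugt2b34 and -0.49 to -0.21 for Ugt2b1. Ugt2b5 had levels of 8.62 and 8.41 and Ugt2b35 levels of 7.31 and 7.10, both with a difference of -0.21 that stayed negative. Both were at -0.09 with the arrays centred. The 4 other Ugt2 genes were nearer to 0. Ugt2b36 was at 9.30 and 9.40, Ugt2b38 at 7.27 and 7.24, Ugt2b37 at 4.54 and 4.51, and Ugt2a3 at 8.80 and 8.68. Their signs depended on the scaling; Ugt2b36 was at -0.01 after loess, and the other 3 were at 0.00 to 0.09 with the arrays centred.

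The promoters of the Ugt2b genes are shown for their likeness to each other and for a motif that they share. The 130 bases before each start site are given below from RefSeq, build GRCm38.p6, in chromosome order and read along the gene. Capitals mark a motif of 13 bases, GTTA and TTAAC with 4 free bases between them, which are the outer letters of the HNF1 site. In Ugt2b1 a second run of capitals marks the PAR bZIP and C/EBP motif, which was found on the opposite strand. A promoter was found for 30 of the 33 members; Gsta4, Gstt2 and Ugt3a2 had none in the table.
Ugt2b34, chr5:86906938-86907067, minus strand: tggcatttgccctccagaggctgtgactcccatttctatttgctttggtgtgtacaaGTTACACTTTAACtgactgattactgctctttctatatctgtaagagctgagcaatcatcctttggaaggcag
Ugt2b1, chr5:86926504-86926633, minus strand: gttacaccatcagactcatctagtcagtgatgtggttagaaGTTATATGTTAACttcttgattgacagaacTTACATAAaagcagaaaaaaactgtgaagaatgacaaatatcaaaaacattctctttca
Ugt2b35, chr5:87000730-87000859, plus strand: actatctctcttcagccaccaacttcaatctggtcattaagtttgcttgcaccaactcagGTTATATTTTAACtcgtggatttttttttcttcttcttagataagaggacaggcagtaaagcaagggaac
Ugt2b36, chr5:87092556-87092685, minus strand: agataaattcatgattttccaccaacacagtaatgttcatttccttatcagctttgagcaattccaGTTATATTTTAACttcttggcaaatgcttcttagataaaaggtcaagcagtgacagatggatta
Ugt2b5, chr5:87140341-87140470, minus strand: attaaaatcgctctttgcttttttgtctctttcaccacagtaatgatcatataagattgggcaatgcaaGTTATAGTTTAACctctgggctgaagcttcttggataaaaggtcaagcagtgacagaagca
Ugt2b37, chr5:87254789-87254918, minus strand: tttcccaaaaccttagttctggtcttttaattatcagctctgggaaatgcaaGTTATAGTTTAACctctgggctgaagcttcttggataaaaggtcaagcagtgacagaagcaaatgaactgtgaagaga
Ugt2b38, chr5:87424204-87424333, minus strand: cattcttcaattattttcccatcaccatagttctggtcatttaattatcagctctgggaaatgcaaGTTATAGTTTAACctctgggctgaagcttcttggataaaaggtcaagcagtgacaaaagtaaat

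All 7 expressed Ugt2b genes held the gapped motif, between 61 and 89 bases before the start site, and so did Ugt3a1, 130 bases before it. Across all promoters of 300 bases (250 before and 50 after the start site) 60 of 27025 genes held it, or 0.222%. This motif was chosen after the Ugt2b sequences were seen, and both strands were searched. The core of the full HNF1 site, TAATNATTA, was in 0 of the 30 members that had a promoter in the table and in 0.714% of all genes. From the gapped motif onwards, 61 bases were identical between Ugt2b5 and Ugt2b37, and 59 of 61 between either of them and Ugt2b38. The levels of these 3 genes differed by -0.21, -0.03 and -0.03. Ugt2b1 and Ugt2b34, with opposite signs, shared 26 of 61 bases, and Ugt2b1 and Ugt2b35, both negative, 29 of 61.

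The PAR bZIP and C/EBP motif was searched as TTACGTAA or TTATGTAA on both strands. It was found in 1 of the 30 members with a promoter, Ugt2b1, 59 bases before the start site, and in 1.23% of all genes. A count of 1 is near the share of all genes and links no gene to HLF. A match of letters is not a measured binding site, and a site outside the 300 bases would not have been seen. The antioxidant response element core, TGACNNNGC, was found in 4 of 30 members (13.3%) and in 14.0% of all genes. These letters can overlap AP-1 sites. The members were Gsta3, Gstm5, Gstm7 (at one of its annotated starts) and Mgst1 (at one of its annotated starts, on the opposite strand). Their differences were -0.04, 0.00, 0.25 and -0.21, so genes with the motif were found on both sides of 0. The stretches of Gsta3, Gstm5 and Mgst1 are given to show the element, in capitals, at different distances from the start.
Gsta3, chr1:21240455-21240584, plus strand: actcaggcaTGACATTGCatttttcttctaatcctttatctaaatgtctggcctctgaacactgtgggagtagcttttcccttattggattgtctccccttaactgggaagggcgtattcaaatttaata
Gstm5, chr3:107895724-107895853, plus strand: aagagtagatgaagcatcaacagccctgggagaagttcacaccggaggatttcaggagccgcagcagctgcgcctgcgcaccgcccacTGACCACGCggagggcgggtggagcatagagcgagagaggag
Mgst1, chr6:138140397-138140526, plus strand: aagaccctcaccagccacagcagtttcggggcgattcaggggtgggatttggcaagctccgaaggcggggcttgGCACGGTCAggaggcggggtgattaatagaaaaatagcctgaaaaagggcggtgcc

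Ugt3a1 and Ugt3a2 differed in opposite directions. The Ugt3 enzymes use sugar donors other than UDP-glucuronic acid. Ugt3a1 had levels of 6.65 in the wild-type tumour and 6.37 in the HLF-deficient one, which differ by -0.27, while its neighbour on chromosome 15, Ugt3a2, had levels of 9.15 and 9.52, a difference of 0.36. Both signs held under all 4 scalings. A pair of probe sets that name both genes had levels of 8.92 and 9.27 and of 8.28 and 8.62, and their differences of 0.34 and 0.35 were near that of Ugt3a2. The Ugt1a genes, among them the bilirubin enzyme Ugt1a1, are made from 1 locus with alternative first exons and shared last exons. They had no row of their own. A probe set naming 8 of them was nearly level at 8.12 and 8.05. The probe set of Ugt2a1 and Ugt2a2 was under the floor in both tumours, with levels of 1.21 and 1.42, as was Ugt8a, which makes galactosylceramide, at 2.56 and 2.51.

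Over all expressed members the median difference was -0.04, beside 0.07 for all 14649 genes, and 12 of 30 (40.0%) had positive values, beside 58.0% of all genes. With the arrays centred, which adds 0.12 to every difference, the medians were 0.09 and 0.20; after quantile normalization they were -0.14 and 0.02, and after loess -0.19 and 0.01. The median of the members was therefore below that of all genes under each scaling, although its own sign changed. By gene, 8 members were positive and 11 negative under all 4 scalings, and the other 11 changed sign. Differences also varied with level, in bins that were chosen after the values were seen. Genes from the floor to a mean level of 6 had a median of 0.00 over 9889 genes, and the 3 members among them one of 0.21, above that of all genes. Genes with a mean level of 8 to 10 had a median of 0.13 over 858 genes, and the 12 members among them one of -0.04. Genes with a mean level of 6 to 8 had a median of 0.22 over 3325 genes, and the 9 members among them one of -0.18. Above 10 the medians were 0.08 over 169 genes and -0.04 over 5 members; the mean level of Mgst2 is under the floor.

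**Figure D3:**
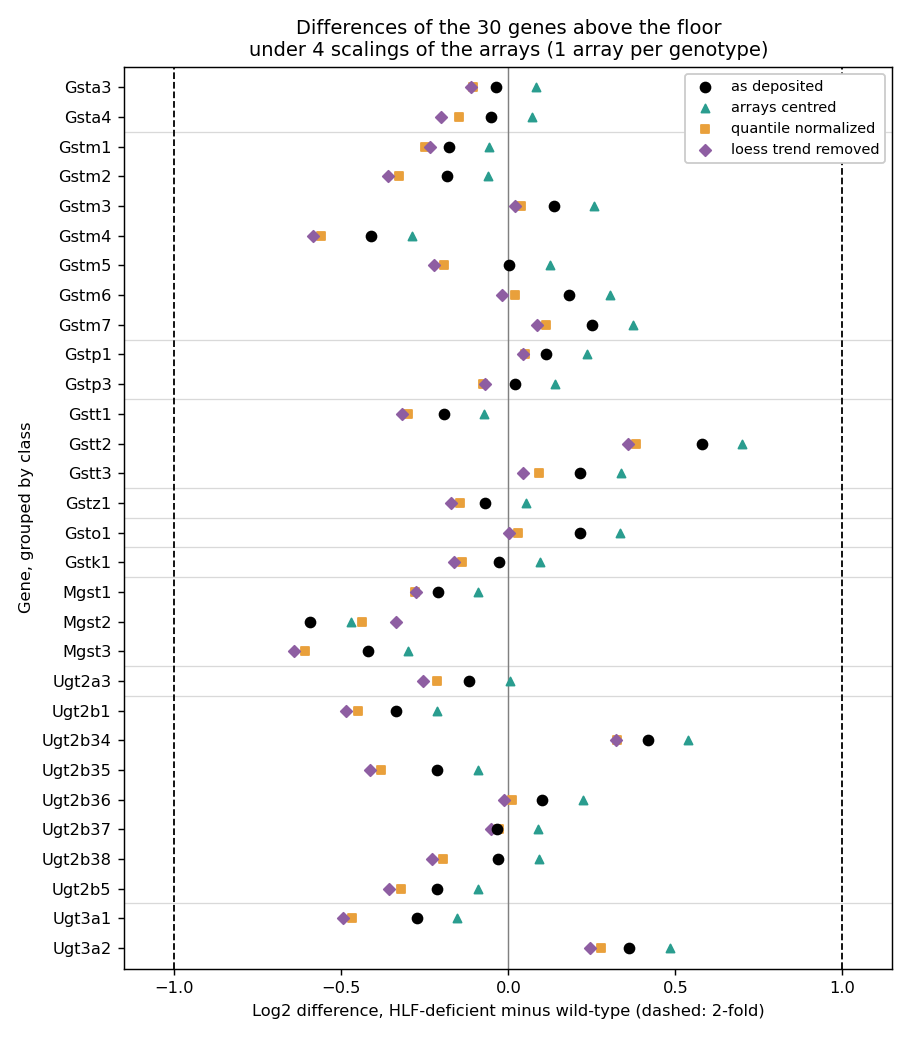
Difference in log2 level, HLF-deficient minus wild-type tumour, of the 30 expressed members, by class, as deposited (black circles) and after centring, quantile normalization or removal of a loess trend, from 1 array per genotype. No point reaches the dashed lines at 2-fold; centring shifts every point to the right, and most points lie farther left after quantile normalization or loess than as deposited.

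A pair of other families of drug metabolism had a smaller share of genes within 1.5-fold. Within 1.5-fold were 29 of 30 members (96.7%), 26 of 33 expressed cytochrome P450 genes of family 2 (78.8%) and 4 of 10 expressed cytosolic sulfotransferases (40.0%), beside 90.5% of all genes. These shares were not matched for level. Median wild-type levels were 8.51 for the members, 7.38 for the cytochromes, 5.46 for the sulfotransferases and 4.94 for all genes. Of the lists described next, conjugate export had 8 of 8 and glutathione supply 16 of 17 (94.1%) within 1.5-fold, so a high share is not particular to the members. Beyond 2-fold were 4 of the cytochromes, all lower, and 3 of the sulfotransferases, 1 higher and 2 lower. Of all genes above the floor, 1.49% were higher and 0.362% lower by the same rule. The 2 families were named with their values known, and the difference between families was not tested.

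Genes that supply or follow the conjugation reactions also had none beyond 2-fold. Among all genes above the floor, 1.49% were higher and 0.362% lower, so counts of 0 in short lists are near these shares. Of 20 listed genes of glutathione supply and turnover, 17 were above the floor, and 0 differed by 2-fold in either direction. Their median was 0.07, equal to that of all genes. Positive values were found in 13 of 17 as deposited, beside 58.0% of all genes, and in 10 after loess. Oplah, the oxoprolinase of the glutamyl cycle, was highest at 0.67, with levels of 5.76 and 6.44, followed by the glutathione peroxidase Gpx1 at 0.43. Ggct and Ggt5, at -0.17 and -0.08, were lowest, and Ggt5 was above 0 under the other scalings. Gclc and Gclm, the subunits of glutamate-cysteine ligase, differed by 0.21 and 0.27.

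Of 10 genes that supply UDP-glucuronic acid or split glucuronides, 0 differed by 2-fold, with a median of 0.12, or -0.01 after loess. Of these, 7 were positive as deposited, beside 58.0% of all genes, and 5 after loess. The phosphoglucomutase Pgm2 was highest at 0.79, with levels of 5.69 and 6.47, followed by the beta-glucuronidase Gusb at 0.46. The sugar nucleotide carrier Slc35d1 and the nucleotidase Entpd5 were lowest at -0.20 and -0.11, Entpd5 being at 0.01 with the arrays centred. Ugdh, which makes UDP-glucuronic acid, was level at 8.27 and 8.36. Of 8 conjugate exporters with a row, 0 differed by 2-fold, with a median of 0.09. As deposited 7 of the exporters were positive, and 5 after loess. Abcc5 and Abcc2, the canalicular exporter, were highest at 0.46 and 0.34. Abcc3, on the sinusoidal side, was lowest at -0.22, followed by Abcc1 at 0.00.

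Regulators of these enzymes had mostly positive values, with a median of 0.31 over 17 genes, or 0.15 after quantile normalization, 0.12 after loess and 0.43 with centred arrays. Of these, 16 (94.1%) were positive as deposited, beside 58.0% of all genes. After quantile normalization 12 were positive, beside 53.5% of all genes, and after loess 11, beside 51.2%. The regulators had a median level of 6.57 in the wild-type tumour. All genes with a mean level of 6 to 8 had a median difference of 0.22 as deposited, so the 58.0% is not matched for level. Only Maff, a small MAF partner of NRF2, was beyond 2-fold, at 3.14 in the wild-type tumour and 4.58 in the HLF-deficient one, which differ by 1.43; 0 were lower by 2-fold. Cebpb, a C/EBP factor, was next at 0.69. Nfe2l2, which encodes NRF2, was at 7.43 and 7.91. Nr1i3, the drug-sensing receptor CAR, was lowest at -0.20, with levels of 6.34 and 6.14, and the oxysterol receptor Nr1h3 next at 0.05, or -0.11 and -0.15 after quantile normalization and loess. The median of the transferases stood at -0.04 beside these values, and the difference between the groups was not tested.

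Other conjugating enzymes held 1 gene beyond 2-fold. Of 14 listed, 11 were above the floor, with a median of -0.10, or 0.02 with the arrays centred; 0 were higher by 2-fold. Inmt, a thioether and indolethylamine methyltransferase, was 2-fold lower, at 8.66 in the wild-type tumour and 7.42 in the HLF-deficient one, which differ by -1.24. Gnmt, the glycine methyltransferase of hepatocytes, was next at -0.60. Hpgds, a sigma class glutathione transferase that makes prostaglandin D and is known from immune cells, was highest at 0.48, with levels of 3.33 and 3.81, and the arsenic methyltransferase As3mt next at 0.41. Perivenous hepatocyte markers lie, in normal liver, in the zone where much of drug metabolism takes place. Whether these tumours hold such zones is not known here. The markers had positive values in 8 of 8 genes, beside 58.0% of all genes, with a median of 0.67. Periportal markers had a median of -0.16 over 6 genes, or -0.04 with the arrays centred. The periportal markers went both ways, with 4 of 6 negative and Pck1 at 0.94. The part of zonation in the levels of the transferases was not tested. Cholangiocyte markers had a median of -0.12 over 4 genes, or 0.00 to 0.02 under the other scalings; Cftr and Muc1 were below the floor, and the summed level was 0.942 times that of the wild-type tumour. Stellate cell and fibroblast markers had a median of 0.23 over 8 genes, or 0.08 and 0.06 after quantile normalization and loess. T, NK and B cell markers had a median of 0.03 over 5 genes, or -0.02 and -0.07 after quantile normalization and loess.

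**Figure D4:**
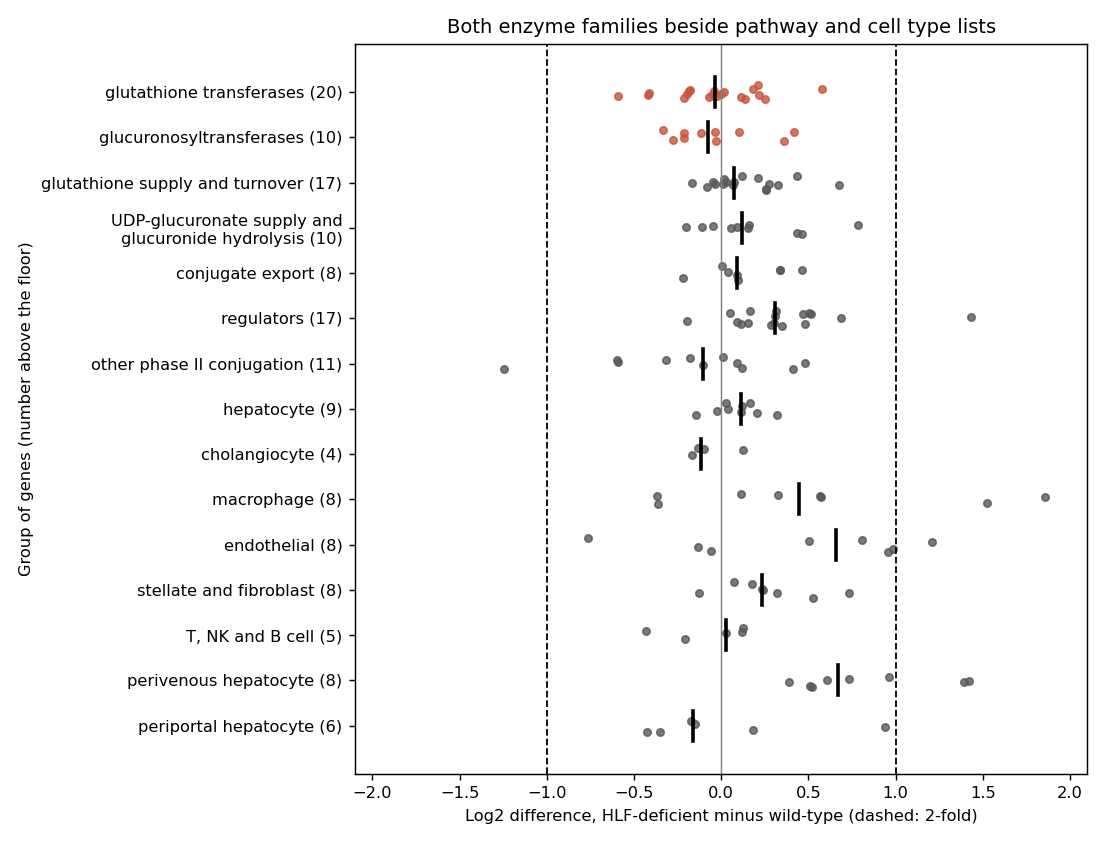
Difference in log2 level, HLF-deficient minus wild-type tumour, of each expressed gene in the 2 enzyme families (red), 5 pathway lists and 8 cell type lists (grey), with the median of each group as a black bar and 2-fold as dashed lines, from 1 array per genotype. The transferases lie between the dashed lines with medians of -0.03 and -0.08, whereas the perivenous and endothelial lists have medians of 0.67 and 0.66.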

How the data were processed

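Per the submitters' processing notes, the authors used RMA, run in Affymetrix Expression Console, to make the values; the notes state no version of either. The deposited values are log2 expression for 35556 probe sets on 2 arrays, 1 per genotype; the log2 scale was read from their range (0.25 to 12.74). RMA compresses differences near background. The set of arrays on which RMA was run is not stated in the labels, and precision is limited by having so few arrays. Gene names came from the platform's annotation table, in which, of the probe sets, 21789 name 1 gene, 1621 several and 12146 none. All 33 members kept their symbol in the RefSeq table of GRCm38.p6. Genes with several probe sets were represented by the one with the highest mean. The floor used 1245 receptor probe sets. No test was possible, and a fixed size of 2-fold was used. The members, lists and comparisons were chosen with earlier results of these data known. Named genes are all members, the 2 highest and 2 lowest of each pathway list, and Hlf. Gclc, Gclm, Ugdh and Nfe2l2 were added for their roles after their values were seen. The cell type markers named fall outside this rule and were picked with their values known. Alternatives were other scalings, floors, fold sizes and treatments of probe sets. The protein comparison that was planned is not used here, as no protein sequences were at hand. Python 3.11.15, pandas 2.3.3 and statsmodels 0.14.6 were used.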

Additional observations from a re-analysis of the deposited data

How the results depend on the processing

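No member and no median compared here was beyond 2-fold as deposited, so a reversal of such a value could not occur. Of the members, 11 changed sign among the 4 scalings. Of 209 values of single members under the scaling, floor and probe set alternatives, 2 moved by more than the technical SD of 0.24, both of Mgst2, to -0.34 after loess and to -0.15 with values below the floor set to it. Most of these values could not move. Another floor leaves a member's difference unchanged, and setting values to the floor alters only Mgst2. Averaging probe sets alters only Gstm3, and centring adds the same amount, below that SD, to each. The count therefore rests mainly on quantile normalization and loess. With a rule of 1.5-fold, 1 member was lower, and the lists held 1 higher gene of glutathione supply, 1 higher gene of UDP-glucuronate supply, 2 higher regulators and 3 lower genes of other conjugation; with a rule of 4-fold, 0 regulators were higher and 0 genes of other conjugation were lower. The Ugt3 median moved from 0.04 to 0.34 when probe sets shared by members were added, and to the same 0.34 when all shared probe sets were added, a setting chosen after seeing the data. Of 269 other counts, medians and list values compared, these 9 moved. No paired analysis was possible because each genotype has 1 array. Genes near the floor, such as Mgst2, are limited by signal over background.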
